A study of Mus musculus with 4 samples.

Results

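Mouse embryoid bodies (EBs) treated with retinoic acid (RA) were compared with untreated EBs, gene by gene, by subtracting the log2 signal of the untreated array from that of the RA array. All probe sets that carry exactly 1 gene symbol were used, 21789 of the 35556 on each array, and they stand for 19938 genes. The study hybridised 4 arrays, 1 each for undifferentiated ES cells, untreated EBs, RA-treated EBs and EBs treated with bexarotene. EBs are aggregates of ES cells in which derivatives of the germ layers begin to form. According to the article the cells were of the D3 line, an established mouse ES cell line. All EBs were collected at day 7, with 2 days spent in hanging drops and another 5 in suspension. The RA dose is 5 µM in the sample labels and 10 nM in the article, and bexarotene, a synthetic agonist of the retinoid X receptor (RXR), was given at 50 nM. The labels name no strain, sex or vector, and the EBs share their line, age and culture format.

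RA is the small lipid hormone that vertebrate embryos make from vitamin A. It binds RA receptors (RAR), which sit on DNA as heterodimers with RXR and switch from holding back transcription to promoting it once the ligand is bound. In the early embryo RA from the somites gives the hindbrain and anterior spinal cord their position along the head-to-tail axis, in large part through Hox genes, and enzymes of the Cyp26 family clear it from the forebrain and the tail bud. In cultures of pluripotent cells RA is widely used to favour neural derivatives.

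No condition has a second array, so differences could not be tested. A gene is called higher or lower here where the signal of the RA array was past 1.5-fold (0.585 on the log2 scale) of that of the untreated array, the threshold used in the article, and such a call is a difference between 2 arrays. All levels below are log2 signals, "without ligand" stands for untreated EBs, and a pair of values gives untreated and then RA-treated EBs. By this rule 420 genes (2.11% of the 19938) were higher and 456 (2.29%) were lower in RA-treated EBs, and none had probe sets past the threshold in both directions. The median difference was 0, and 14340 genes (71.9%) lay within 0.2 of it. At least 2-fold differences were found for 133 genes higher and 161 lower, at least 4-fold for 20 and 20, and at least 8-fold for 5 and 5. The robust SD of the difference over all these probe sets was 0.172, and over 20 classes of signal it ranged from 0.0826 to 0.232. That spread holds real differences as well as error and says nothing of the spread between cultures. Genes were also split by the higher of their 2 signals, against the median of the RA array. Of the 7951 genes below it 1.76% were past the threshold in either direction, against 6.14% of the 11987 at or above it. A large difference itself raises the higher signal, so this split cannot show whether calls depend on brightness. Nearest the threshold, Nckap1l, Wdr47 and Sox15 lay just inside it at 0.59 and Gcnt4, Slc1a2 and Cltb just outside at 0.58, and on the lower side Fhl2, Tacr1 and Decr1 lay inside at -0.59 and Strbp, Plcb4 and Dqx1 outside at -0.58.

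**Figure D1:**
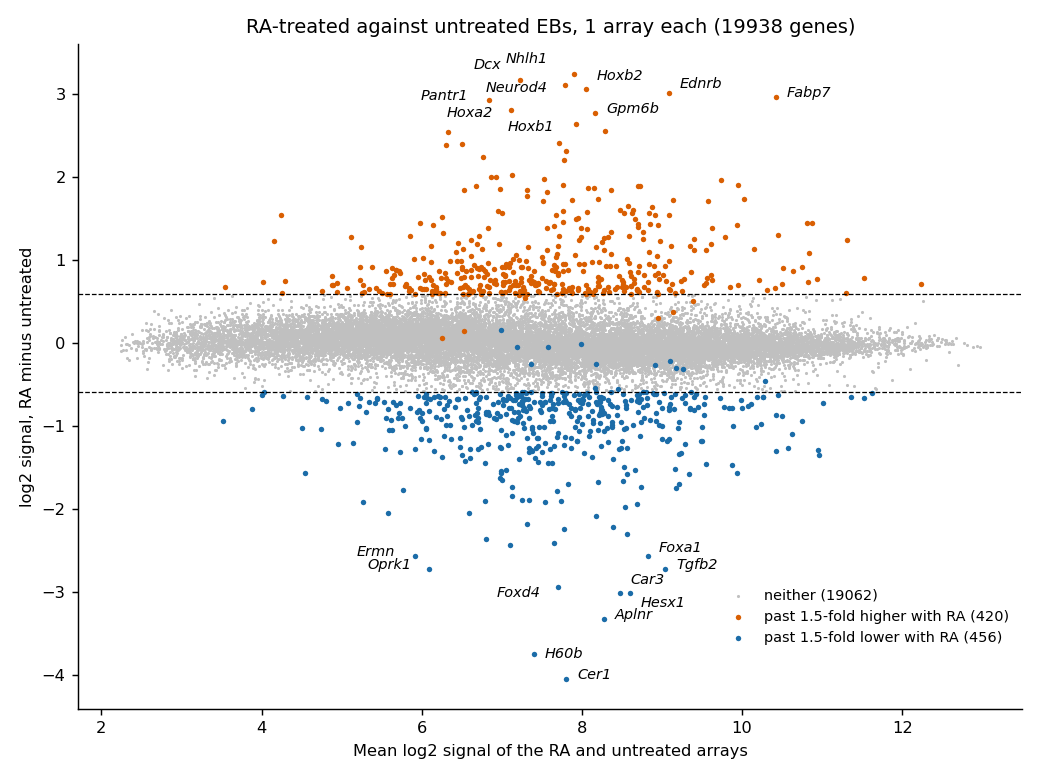
The y axis gives the difference in log2 signal between RA-treated and untreated EBs and the x axis the mean log2 signal of the 2 arrays, with 1 point per gene and dashed lines at 1.5-fold. Orange points are the 420 genes past 1.5-fold higher with RA, blue points the 456 lower, and 20 coloured points inside the lines are genes called by a second probe set that is not plotted. The labelled genes run from Nhlh1 (3.23) to Cer1 (-4.04).

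Among the 20 genes with the highest differences were Nhlh1, Dcx, Ednrb and Fabp7. Nhlh1, a helix-loop-helix factor of neurons that have just left the cell cycle, had a signal of 5.50 in ES cells, 6.29 without ligand, 9.52 with RA and 8.91 with bexarotene, and was thus 9.41-fold higher with RA than without. Dcx, a microtubule protein of migrating neurons, stood at 5.65 in untreated and 8.81 in RA-treated EBs. The signal of Ednrb, an endothelin receptor of neural progenitors and neural crest, was 7.58 and 10.59. In these 3 genes the untreated EBs were nearer to ES cells than to RA-treated EBs. Fabp7 went the other way, at 5.28 in ES cells, 8.94 without ligand and 11.91 with RA. Gpm6b, a membrane protein of neurons and oligodendrocytes, was 6.83-fold higher (6.78 and 9.55), Sparcl1, a secreted matrix protein of the nervous system, 5.32-fold (6.51 and 8.92) and Ppp1r17, a phosphatase inhibitor best known from Purkinje cells, 5.23-fold (5.12 and 7.50). Fez1, an adaptor for transport along axons, was 4.95-fold higher (6.65 and 8.96), and Clvs1, a lipid-binding protein of neurons, 4.60-fold (6.68 and 8.88).

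The 20 genes with the lowest differences were of varied kinds. Cer1, which blocks Nodal and BMP ligands outside the cell, had a signal of 5.48 in ES cells, 9.82 without ligand and 5.78 with RA, a 16.4-fold lower signal. Aplnr, the apelin receptor of cardiovascular mesoderm, was at 6.76, 9.94 and 6.62 in the same order, and Car3, a carbonic anhydrase, at 7.13, 9.98 and 6.96. Each of these genes had its highest signal in untreated EBs, and with RA it was close to its level in ES cells. H60b, a ligand of an activating receptor of natural killer cells, was 13.4-fold lower (9.27 and 5.52), and Tgfb2, a growth factor of mesenchyme and heart cushions, 6.59-fold lower (10.40 and 7.68). Oprk1, the kappa opioid receptor, was 6.57-fold lower, Lgi1, a secreted synaptic protein, 5.39-fold, Irs4, an adaptor of insulin signalling, 4.91-fold, and the tight junction gene Cldn1 4.51-fold.

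Markers of cell types differed between the 2 arrays as well. The mean signal of 6 neuronal markers was 7.51 in untreated EBs and 9.21 with RA, and 4 of the 6 were higher. That of 6 neural progenitor markers was 8.67 and 9.88, with 4 higher. The 8 markers of ES cells had a mean of 10.2 in ES cells, 7.81 without ligand and 8.35 with RA, with 5 higher. The 6 markers of definitive or anterior endoderm had means of 8.98 and 7.54 with 5 lower, the 6 of cardiac muscle 8.23 and 7.32 with 4 lower, the 6 of endothelium and blood 7.33 and 6.78 with 3 lower, and the 6 of fibroblasts 7.52 and 6.87 with 3 lower. The 6 markers of visceral endoderm were alike (8.83 and 9.10, 0 past 1.5-fold). Of 6 paraxial mesoderm markers 2 were lower, and of 4 trophoblast markers 1 was. In RNA from whole EBs, fewer cells of a type and less RNA per cell cannot be told apart, and the part of cell composition in any gene's difference was not tested.

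**Figure D2:**
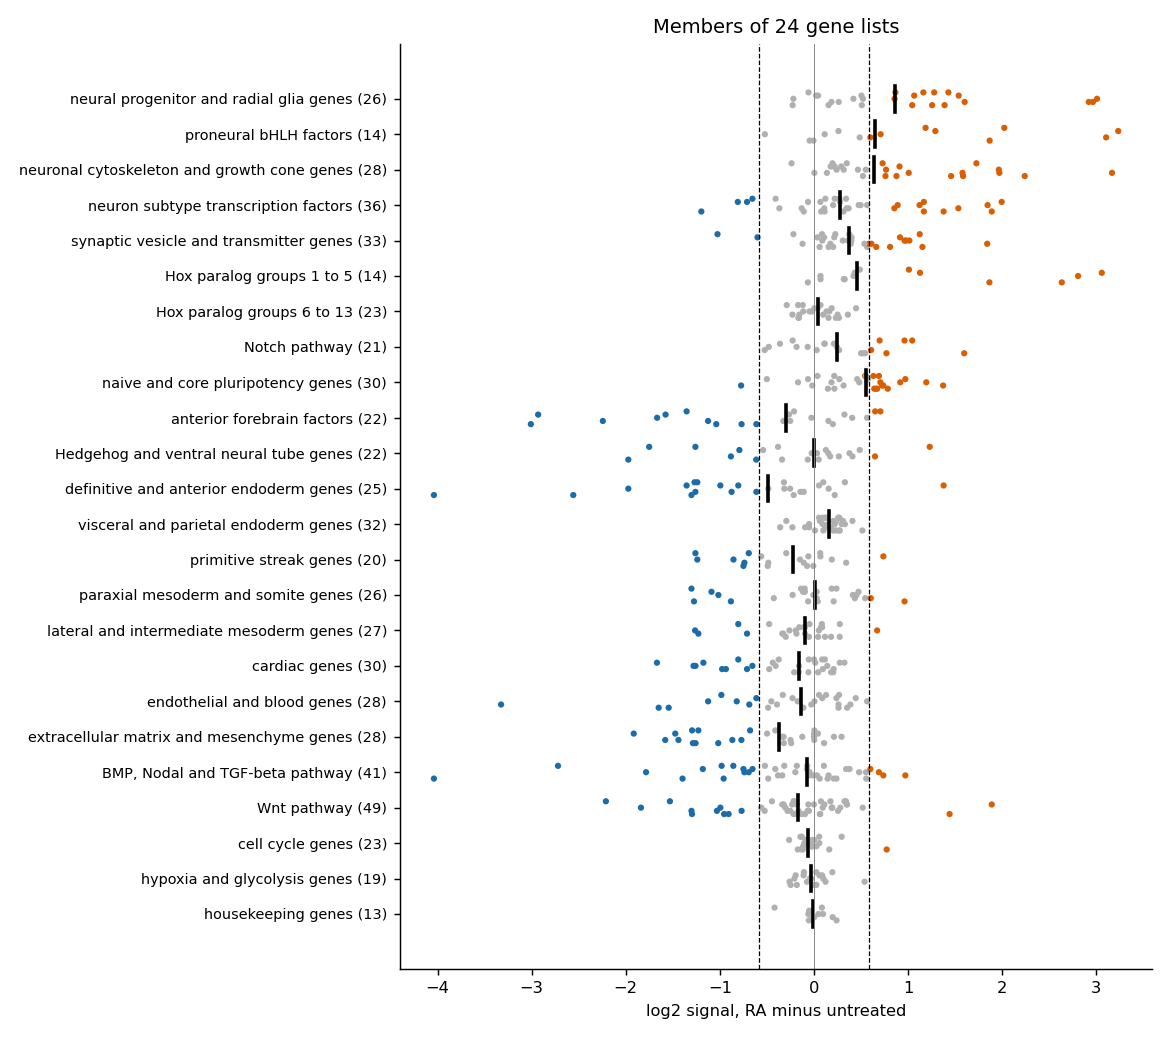
The x axis gives the difference in log2 signal between RA-treated and untreated EBs, and each point is 1 gene of the list named on the y axis, with the number of measured genes in parentheses. Orange and blue points are past 1.5-fold higher and lower, a few of them by a probe set that is not plotted, black bars are list medians and dashed lines mark 1.5-fold. The list medians run from 0.86 for neural progenitor genes to -0.48 for definitive and anterior endoderm, with visceral and parietal endoderm at 0.16 and housekeeping genes at -0.01.

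Of the machinery that makes, moves, senses and removes RA, few genes differed. Among the 6 receptors, Rarg alone was past the threshold, with a signal of 10.48 in ES cells, 8.89 without ligand, 8.18 with RA and 8.22 with bexarotene (1.63-fold lower with RA). Rara (9.04 and 9.10), Rxra (8.82 and 8.91) and Rxrb (8.92 and 8.88) were level between untreated and RA-treated EBs, and Rxrg was at 7.41 and 6.87. Rarb, long known as a direct RA target, stood at 5.86 in ES cells, 8.17 without ligand and 7.79 with RA. It was thus well above ES cells in EBs that had received no RA. None of 10 RA-making enzymes was past the threshold, with differences from -0.43 for Aldh1a2, the main enzyme of the embryonic trunk, to 0.29 for Adh7.

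Of 6 genes for removing RA or its precursors 1 was higher. Cyp26b1, the RA hydroxylase of hindbrain and limb, had a signal of 6.92 in ES cells, 6.82 without ligand, 8.72 with RA and 8.63 with bexarotene, 3.73-fold above untreated EBs. Its relatives did not share this: Cyp26c1 differed by 0.46, and Cyp26a1, which clears RA from the tail bud, was at 5.75 in ES cells, 9.60 without ligand and 9.24 with RA. The retinaldehyde reductase gene Dhrs3, which feeds back on RA supply, was at 7.96 and 8.03. Of 8 genes for binding and uptake, both cellular RA-binding proteins were higher, Crabp2 by 1.66-fold (10.46 and 11.19) and Crabp1 by 1.64-fold (11.88 and 12.59), while the retinol receptor Stra6 was at 9.30 and 8.94.

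The promoter sequences of the 2 best known direct targets and of Cyp26b1 show how these genes differ at their starts. RAR and RXR dimers bind pairs of a short half-site repeated head to tail, called direct repeats DR1, DR2 and DR5 after the number of bases between the copies. The lines below give RefSeq sequence of build GRCm38.p6, from 250 bases before to 50 bases after the annotated start and in the direction of the gene, with any DR5 in capitals. Rarb lies at chr14:16575427-16575726 on the minus strand, Cyp26a1 at chr19:37697558-37697857 on the plus strand and Cyp26b1 at chr6:84593761-84594060 on the minus strand.
Rarb: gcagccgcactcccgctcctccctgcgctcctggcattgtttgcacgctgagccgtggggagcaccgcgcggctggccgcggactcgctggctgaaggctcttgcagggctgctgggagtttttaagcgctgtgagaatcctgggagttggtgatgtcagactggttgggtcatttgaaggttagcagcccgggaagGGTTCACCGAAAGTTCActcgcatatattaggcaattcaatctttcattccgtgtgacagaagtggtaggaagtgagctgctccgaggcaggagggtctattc
Cyp26a1: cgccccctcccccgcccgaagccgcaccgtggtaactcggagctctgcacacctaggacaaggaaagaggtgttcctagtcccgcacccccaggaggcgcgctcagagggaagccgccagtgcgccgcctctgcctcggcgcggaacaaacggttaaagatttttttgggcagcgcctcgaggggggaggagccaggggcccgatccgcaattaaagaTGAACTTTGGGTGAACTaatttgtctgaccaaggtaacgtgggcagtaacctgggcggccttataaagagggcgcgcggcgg
Cyp26b1: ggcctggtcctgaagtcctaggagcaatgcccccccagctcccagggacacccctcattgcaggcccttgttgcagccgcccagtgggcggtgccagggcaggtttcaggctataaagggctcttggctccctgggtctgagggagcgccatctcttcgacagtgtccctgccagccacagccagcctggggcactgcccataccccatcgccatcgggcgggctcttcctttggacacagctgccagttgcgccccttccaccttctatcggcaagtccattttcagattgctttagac
The DR5 of Rarb starts 53 bases and that of Cyp26a1 32 bases before the gene start, while the Cyp26b1 window has none of the 3 repeats. Of the 3 genes, Cyp26b1 alone was past 1.5-fold. At least 1 window was at hand for 15616 of the 19938 genes, and some genes have several starts. On either strand, 63 of these genes (0.403%) had a window with at least 1 of the repeats, 38 (0.243%) a DR1, 14 (0.0897%) a DR2 and 11 (0.0704%) a DR5. None of the 303 genes higher with RA that have a window, and none of the 319 lower, had one. A single half-site was found for 44.6% of the higher genes, 41.4% of the lower genes and 44.4% of all. These letters were searched only in windows of 300 bases, which leaves out distant elements.

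Reported target genes of RA were mixed. Of 28 listed, 23 were measured, and of these 8 were higher and 2 lower, with a median difference of 0.23. With signals floored at each array's 25th percentile, the median difference of reported RA target genes was 0.112. Meis1, a homeobox partner of Hox proteins, had a signal of 7.44 in ES cells, 7.78 without ligand, 9.67 with RA and 9.79 with bexarotene (3.71-fold higher with RA), and its relative Meis2 7.96, 10.29, 11.37 and 11.56 (2.12-fold). Nr2f1 and Nr2f2, orphan nuclear receptors that pattern the neural tube, were 2.69-fold (8.24 and 9.66) and 1.62-fold higher (9.18 and 9.88). Tshz1, a zinc finger gene of the trunk, was 2.08-fold higher (7.38 and 8.44). The lower targets were Foxa1, a forkhead gene of endoderm and floor plate, at 10.11 and 7.55 (5.89-fold), and the transglutaminase Tgm2 at 8.12 and 7.42 (1.63-fold). Zfp703 was at 8.16 and 8.71, inside the threshold as deposited and past it after quantile or loess normalization, which makes 9 targets higher. Zfp503, Cdx1, Pdgfra, Nrip1 and Stra8 were not past the threshold. Of 30 nuclear receptors other than RAR and RXR, 6 were higher and none lower, and of 10 coregulators of RAR and RXR only Prmt8, an arginine methyltransferase of the brain, was past 1.5-fold (5.93 and 7.93).

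**Figure D3:**
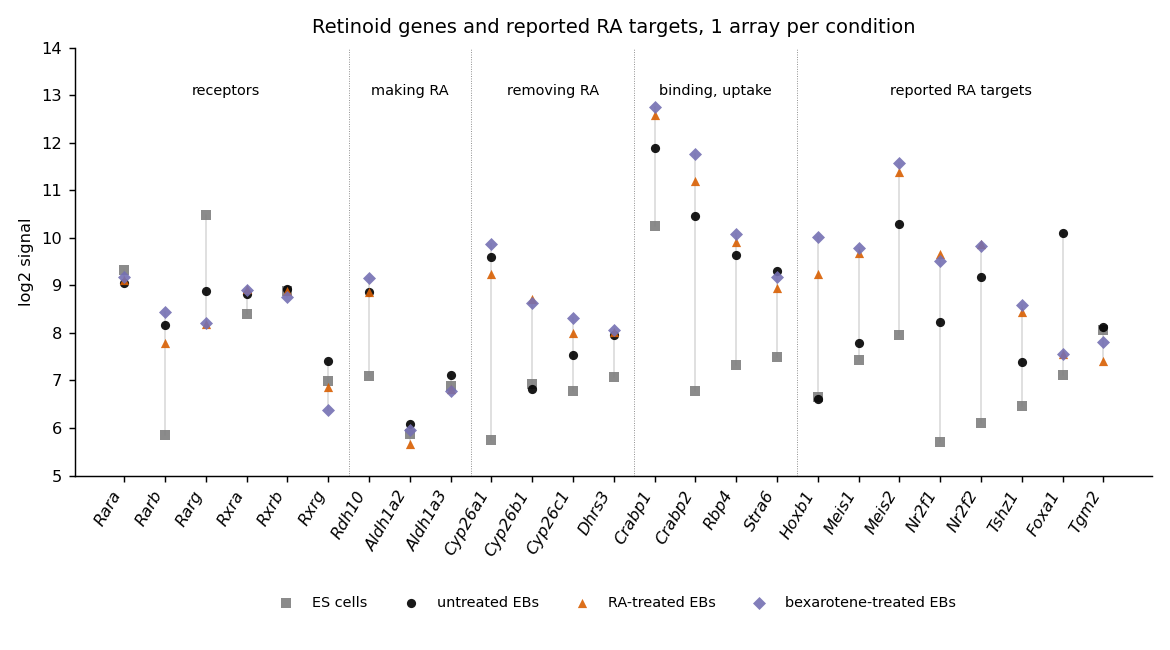
Log2 signal of 25 genes of retinoid metabolism, reception and response in the 4 arrays, with 1 point per array and no replicates. In the 3 EB arrays Rarb runs from 7.79 to 8.44 and Cyp26a1 from 9.24 to 9.87, while Hoxb1 and Cyp26b1 are higher with either ligand than in untreated EBs.

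Hox genes past the threshold were low-numbered genes of the Hoxa and Hoxb clusters. Hox proteins give cells of the neural tube and mesoderm their position along the axis, and the low-numbered genes at the 3′ end of each cluster act in the hindbrain. In the Hoxb cluster the difference between RA-treated and untreated EBs was 2.63 for Hoxb1, 3.06 for Hoxb2, 1.87 for Hoxb3, 1.13 for Hoxb4 and 0.07 for Hoxb5. In the Hoxa cluster it was 2.81 for Hoxa2, 1.01 for Hoxa3, 0.42 for Hoxa4 and 0.33 for Hoxa5. From group 5 on, no gene of either cluster was past 1.5-fold. Hoxb1 had a signal of 6.65 in ES cells, 6.61 without ligand, 9.25 with RA and 10.02 with bexarotene, and Hoxb2 6.73, 6.52, 9.58 and 10.01. Untreated EBs thus lay at the level of ES cells for both. The Hoxd genes of groups 1, 3 and 4 differed by 0.07, 0.32 and -0.06, and Hoxc4 and Hoxc5 by 0.49 and 0.43. Of the 14 genes of groups 1 to 5, 6 were higher and none lower (median 0.46). Of the 23 genes of groups 6 to 13 none was past 1.5-fold in either direction (median 0.04), and their differences ran from -0.29 for Hoxa13 to 0.45 for Hoxd12. Of 8 genes for Hox cofactors, Meis1 and Meis2 alone were past the threshold.

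**Figure D4:**
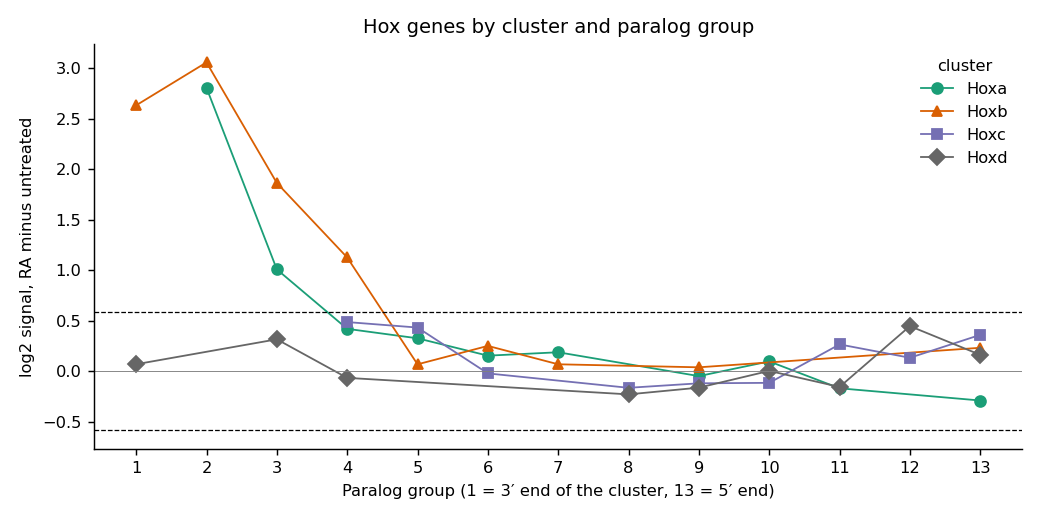
Difference in log2 signal between RA-treated and untreated EBs on the y axis against the paralog group of each Hox gene on the x axis, with 1 line per cluster and dashed lines at 1.5-fold. The low-numbered Hoxa and Hoxb genes stand highest, and no gene of groups 6 to 13 is past 1.5-fold.

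Other genes of position along the neural axis differed by region. Of 22 anterior forebrain factors 10 were lower and 2 higher (median -0.30). Hesx1, a homeobox repressor needed for forebrain and pituitary, was at 6.85 in ES cells, 10.10 without ligand and 7.09 with RA, 8.05-fold lower with RA. Foxd4, a forkhead gene of early anterior neural plate, was at 6.04, 9.17 and 6.24, and Six3, a homeobox gene of forebrain and eye, at 6.45, 8.90 and 6.65. For these 3 genes the signal with RA was close to that in ES cells. Fezf2 (9.35 and 7.68), Otx1 (9.35 and 7.77) and Otx2 (11.64 and 10.29), which specify forebrain and midbrain, were lower as well, whereas Dlx2 (6.58 and 7.28) and Sp8 (7.32 and 7.97) were higher. Of 17 factors of the midbrain-hindbrain boundary 4 were higher and 4 lower. The paralogs En1 and En2 differed in opposite directions, En1 at 8.92 and 7.73 and En2 at 5.94 and 6.93, and Wnt1, a boundary signal, was lower (9.23 and 8.32). Of 14 hindbrain segment factors, Nr2f1, Nr2f2 and Gbx2 (7.58 and 8.18) were higher and Sall1 (9.21 and 8.59) was lower.

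Most genes of the back-to-belly axis were not past the threshold. Of 20 dorsal and intermediate neural tube factors 4 were higher and 1 lower. Dbx1, a homeobox gene of interneuron progenitors, was 8.73 in untreated EBs and 10.43 with RA, Zic1 8.36 and 9.31, and Olig3 6.18 and 7.12. Of 22 Hedgehog and ventral genes 6 were lower and 2 higher, and 11 differences were above 0. Shh, the ligand of notochord and floor plate, had a signal of 7.11 in ES cells, 9.52 without ligand and 7.55 with RA (3.93-fold lower), Nkx2-9 of 10.06 in untreated and 8.31 in RA-treated EBs, and Foxa2 of 9.19 and 7.93. The target gene Gli1 was 1.53-fold lower (9.23 and 8.62), and the Hedgehog co-receptor Boc was higher (8.36 and 9.59).

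Lists of neural progenitors and neurons held more higher than lower genes. All 51 lists together held 142 of the 420 higher and 110 of the 456 lower genes, so most called genes are in none of them. As 162 genes are in several lists, the counts of different lists are not separate. Of 26 genes of neural progenitors and radial glia 14 were higher and none lower, and the list had the highest median of the 51 lists (0.86). The lists were drawn up with earlier results of these data known, so their counts and ranks are descriptions only. Fabp7, a fatty acid binding protein of radial glia, stood at 5.28 in ES cells, 8.94 without ligand, 11.91 with RA and 11.60 with bexarotene. Pantr1, a noncoding RNA next to a neural POU gene, was at 5.38 in untreated EBs and 8.30 with RA, Dach1 at 7.67 and 9.27, and the POU factor Pou3f2 at 8.14 and 9.68. Pax6, which sets progenitor identity, was 2.69-fold higher (8.13 and 9.56). Sox1, a general marker of neural plate, did not pass the threshold, with a difference of 0.16. Of 21 Notch pathway genes 6 were higher and none lower. The target Nrarp was at 7.84 and 9.44, its relative in response Hes5 at 8.42 and 9.46, and the ligand Dll1 at 8.11 and 9.07.

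Lists for later steps of neuron formation held higher genes as well. Among 14 proneural helix-loop-helix factors 8 were higher and none lower: besides Nhlh1, Neurod4 stood at 6.24 in untreated EBs and 9.34 with RA, Neurog1 at 7.22 and 9.09, and Neurod1 at 6.11 and 8.13. Neurod1 was also at 8.28 in ES cells, so it was lower in untreated EBs than in either. Of 36 transcription factors of neuron subtypes 10 were higher and 4 lower. The related genes Ebf1 (7.76 and 9.65), Ebf2 (6.91 and 8.45) and Ebf3 (7.44 and 9.28), which act in maturing neurons, were each higher, as was the zinc finger gene St18 (5.87 and 7.87). Of 28 genes of the neuronal cytoskeleton and growth cone 14 were higher and none lower. The neurofilament genes Nefm (5.65 and 7.89), Nefl (9.16 and 10.89) and Ina (8.75 and 10.72) and the neuronal tubulin gene Tubb3 (6.98 and 8.56) were among them, and Elavl4, an RNA-binding protein of neurons, was at 6.55 and 8.52.

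Genes for contact and transmission were less uniform. Of 19 adhesion genes of neurons 7 were higher and none lower, led by Lrrn1 (9.22 and 10.64) and Lrrn3 (5.43 and 6.85). Of 27 axon guidance genes 4 were higher and 6 lower: the netrin receptor Dcc was at 6.39 and 8.23 and Robo2 at 7.95 and 9.23, but the semaphorin co-receptor Nrp1 was at 8.73 and 7.68 and the Robo ligand Slit2 differed by -1.01. Of 26 transmitter receptors and channels 7 were higher and 2 lower. Chrna3, a nicotinic acetylcholine receptor subunit, had a signal of 6.08 in ES cells, 7.02 without ligand, 9.57 with RA and 9.40 with bexarotene, and Glra1, a glycine receptor subunit, 5.22, 5.06, 7.60 and 8.03. Of 33 genes of synaptic vesicles and transmitters 11 were higher and 2 lower. Scg3 of secretory granules (5.60 and 7.44) and Snap25 of the fusion machinery (7.01 and 8.13) were higher, and Penk, the enkephalin precursor, was lower (9.07 and 8.04). Of 14 glial genes 2 were higher, and of 20 neural crest genes 6 were, among them Tfap2b (a difference of 1.24) and Ngfr (7.84 and 8.57).

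Many pluripotency genes had a higher signal in RA-treated than in untreated EBs. Of 30 genes of this list 14 were past 1.5-fold higher and 1 lower, with a median difference of 0.55 where that of all genes was 0, and 25 of 30 differences were above 0. Nr0b1, a nuclear receptor of ES cells, had a signal of 12.07 in ES cells, 7.37 without ligand, 8.74 with RA and 8.22 with bexarotene (2.59-fold higher with RA than without). Dppa2 was at 11.77, 9.01, 10.21 and 9.83 in this order, and Nanog at 11.65, 9.18, 9.91 and 9.59. Each of these genes lay between untreated EBs and ES cells in the RA array, and nearer to untreated EBs. Pou5f1, the core factor of the network, was at 11.67 in ES cells, 8.78 without ligand, 9.42 with RA and 8.81 with bexarotene. Sox2, which neural progenitors express too, was almost level (11.02 and 11.21). Klf4 (8.77 and 8.99), Klf2 (7.42 and 7.63) and Tet1 (10.19 and 10.17) were not past the threshold. Lin28a was lower (10.16 and 9.39). With bexarotene 5 of the 30 were higher than in untreated EBs and 2 lower, where 1.52% and 2.19% of all genes were, and both comparisons share the untreated array. Of 13 genes of the primed epiblast none was higher and 4 were lower with RA, among them Fgf5 (9.15 and 8.48). Of 20 germline genes 4 were higher, led by Rhox9 (8.32 and 9.87), and 1 was lower.

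The lists of endoderm genes differed from each other. Of 25 genes of definitive and anterior endoderm 12 were lower and 1 higher, and their median of -0.48 was the lowest of the 51 lists. Members were chosen with earlier results of these data known, so this rank is a description only. Besides Cer1, Foxa1, Shh and Otx2, the Wnt antagonist Dkk1 was at 11.08 in untreated EBs and 9.78 with RA and Trh, the precursor of thyrotropin-releasing hormone, at 11.21 and 9.94. The 1 higher gene was Onecut1 (7.30 and 8.68), which is also a factor of motor neurons and interneurons. Lower members are shared with neural lists too: Otx2 with the forebrain factors and Shh with the Hedgehog and ventral neural tube genes. Of 32 genes of visceral and parietal endoderm none was past 1.5-fold in either direction, 26 of the 32 differences were above 0, and the median was 0.16. Gata4 was at 10.02 and 10.30, Gata6 at 10.46 and 10.65, and Ttr at 9.45 and 9.67. Sox17, which both kinds of endoderm express, was at 8.53 and 8.58. How cleanly the lists separate the kinds of endoderm was not tested, so they do not assign the lower genes to either kind.

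Mesodermal lists were mixed or lower. Of 20 primitive streak genes 6 were lower and 1 higher, with Gsc, an organizer gene, at 8.08 and 6.84 and the BMP antagonists Chrd at 7.63 and 6.88 and Nog at 8.21 and 7.47. Of 25 genes of the posterior growth zone 3 were lower and 2 higher, led by the Wnt agonist Rspo3 (8.05 and 6.21) and Wnt5a (8.02 and 6.73). Tbx6 (7.09 and 7.03) and Msgn1 (7.04 and 7.07), which define the presomitic mesoderm, were level in these EBs and in ES cells (7.10 and 7.32). Of 26 paraxial mesoderm and somite genes 5 were lower and 2 higher. The forkhead genes Foxc1 (8.04 and 7.02) and Foxc2 (8.24 and 7.16) and the sclerotome gene Pax9 (8.24 and 6.96) were lower. Both higher genes, the Notch ligand Dll1 and Pax3 (7.45 and 8.06), are also expressed in the neural tube. Of the lower genes, Sim1 (7.67 and 6.78) is also in the list of Hedgehog and ventral neural tube genes. Of 27 genes of muscle determination and differentiation 3 were higher and 5 lower, among the latter the receptor Met of migrating muscle precursors (7.99 and 6.26).

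Cardiovascular and connective tissue genes were lower where they differed. Of 30 cardiac genes 9 were lower and none higher, of 28 endothelial and blood genes 8 were lower and none higher, and of 28 matrix and mesenchyme genes 12 were lower and none higher, with medians of -0.16, -0.14 and -0.37. Among the first, Myh7, a myosin heavy chain, was at 9.03 and 7.36 and the outflow tract gene Tbx1 at 9.09 and 7.91. Among the second, Kdr, a receptor for vascular endothelial growth factor, was at 7.82 and 6.17 and the vessel sialoprotein gene Emcn at 6.84 and 5.72. Among the third, the proteoglycan gene Lum was at 6.22 and 4.31, Spon1, a matrix protein of the floor plate, at 10.13 and 8.55, and the hyaluronan synthase gene Has2 at 10.61 and 9.14. Of 27 lateral and intermediate mesoderm genes 4 were lower, led by Foxf1 (9.11 and 7.85) and Prrx1 (8.39 and 7.17), and 1 higher. Of 27 surface ectoderm and placode genes 5 were lower, the simple keratins Krt8, Krt18 and Krt19 among them. Of 15 trophoblast genes 3 were lower and 1 higher.

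Of 41 genes of BMP, Nodal and TGF-beta signalling 12 were lower and 4 higher. The ligands Tgfb2, Bmp5 (8.58 and 6.79), Bmp2 (9.08 and 7.69) and Tgfb1 (8.53 and 7.35) were lower, as were the antagonists Cer1, Chrd and Nog, while the Nodal antagonists Lefty1 (5.63 and 6.60) and Lefty2 (5.44 and 6.13) were higher. Of 49 Wnt pathway genes 10 were lower and 2 higher. The receptors Fzd5 (9.50 and 7.29) and Fzd8 (9.04 and 8.01) and the Rspo receptor Lgr5 (9.43 and 7.90) were lower, and the higher genes were Wnt7a (5.73 and 7.62), a ligand of the neural tube, and the antagonist Sfrp2 (10.08 and 11.53). Of 35 FGF pathway genes 5 were higher and 3 lower, with Fgfr3 at 8.37 and 9.19 and Fgf16 at 7.73 and 5.84.

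Lists of general cell function were nearly level. None of 13 housekeeping genes, 19 genes of hypoxia and glycolysis or 17 of cholesterol and fatty acid synthesis was past 1.5-fold in either direction, with medians of -0.01, -0.03 and -0.02. Of 23 cell cycle genes Ccnd1 alone was (10.55 and 11.33). Of 21 immediate early and stress genes 3 were lower, led by Myc (9.95 and 9.09). Of 21 LXR and PPAR targets 2 were higher and 1 lower, the fatty acid transporter Cd36 (6.65 and 4.88). Of 20 imprinted genes Plagl1 was higher (10.20 and 11.06) and 2 were lower.

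Bexarotene-treated EBs, collected at the same day, were the array most like RA. Between the 2 ligands, whose doses differ, 41 genes (0.206%) were higher and 60 (0.301%) lower with bexarotene than with RA, 0.507% in either direction, and the robust SD of the difference was 0.115. Osr1, a factor of intermediate and lateral mesoderm, had a signal of 6.19 in ES cells, 7.22 without ligand, 6.92 with RA and 8.63 with bexarotene. Foxf1 was at 7.45, 9.11, 7.85 and 9.13, and Hapln1, a matrix linker, at 4.97, 6.80, 5.51 and 7.12. RA thus lay below untreated EBs in all 3 genes, past 1.5-fold in Foxf1 and Hapln1, while bexarotene was above or level. Tecrl was above untreated EBs with both (4.77 without ligand, 5.69 with RA, 6.73 with bexarotene), and so was the receptor gene Ret (6.79, 7.49 and 8.30). Bmp4 was at 9.97, 9.63 and 10.55.

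Among genes lower with bexarotene than with RA were Dcx, Bcl11a, Penk, Lhx1, Fgf5 and Fezf1. Dcx was at 5.65 without ligand, 8.81 with RA and 7.86 with bexarotene, and Bcl11a, a zinc finger gene of neurons, at 7.12, 8.29 and 7.33. Fezf1 (9.29, 8.16 and 7.31), Fgf5 (9.15, 8.48 and 7.62) and Penk (9.07, 8.04 and 7.10) were below untreated EBs with both ligands and lowest with bexarotene. Lhx1, a factor of organizer and neurons, was level with RA (8.07 and 7.96) and at 7.06 with bexarotene. Members past 1.5-fold lower with bexarotene than with RA were 6 of 22 forebrain factors, 4 of 28 genes of neuronal cytoskeleton and 3 of 26 of neural progenitors, and members higher were 4 of 27 lateral and intermediate mesoderm genes, 3 of 28 matrix genes and 3 of 23 reported RA targets.

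**Figure D5:**
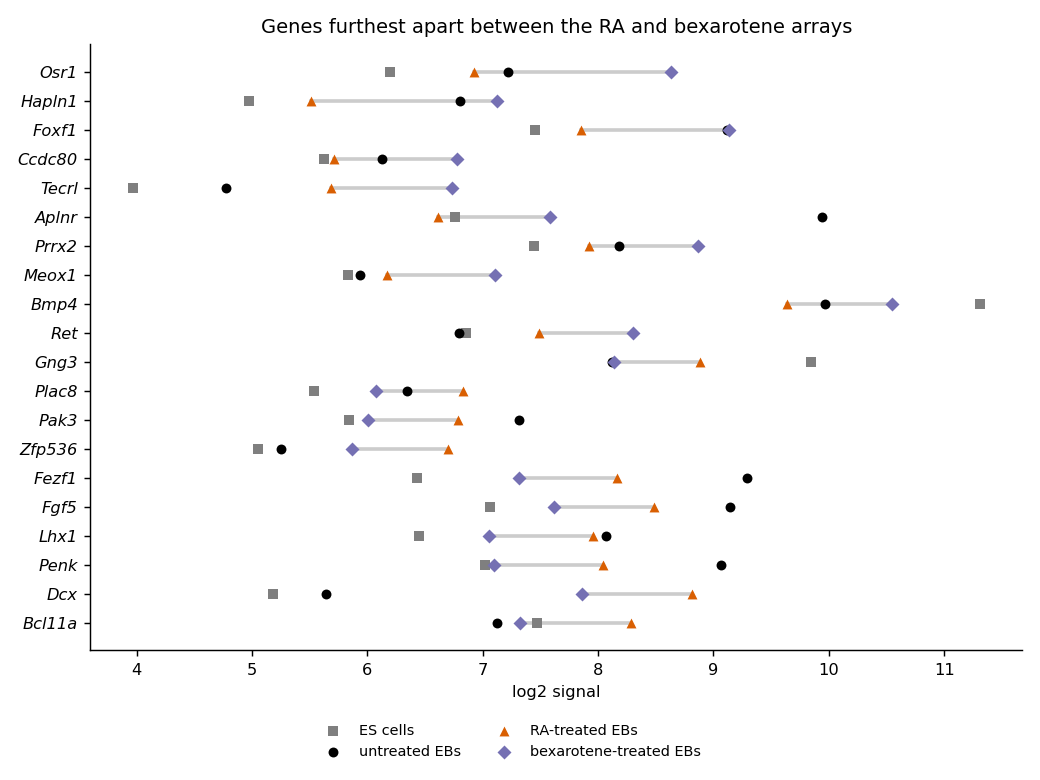
Log2 signal on the x axis of the 20 genes furthest apart between the RA and bexarotene arrays, with 1 point per array, no replicates and a grey bar joining the 2 ligands. Osr1, Hapln1 and Foxf1 are higher with bexarotene (8.63, 7.12 and 9.13) than with RA (6.92, 5.51 and 7.85), and Dcx and Bcl11a are higher with RA.

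Genes for microRNAs were picked out after their values were seen. Of 287 measured, 4 were higher and 14 lower with RA, where 2.11% and 2.29% of all genes were. The mature sequences of the clusters that stand out are given from RefSeq (GRCm38.p6) with the seed, bases 2 to 8, in capitals, since the seed sets which messenger RNAs are bound. The first 5 come from 1 host transcript on chromosome 14, and the others are 1 example from the cluster on chromosome 3 and the 2 microRNAs that were highest.
miR-17-5p: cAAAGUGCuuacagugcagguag
miR-20a-5p: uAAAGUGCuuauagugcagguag
miR-18a-5p: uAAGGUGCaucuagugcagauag
miR-19a-3p: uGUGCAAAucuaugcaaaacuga
miR-19b-3p: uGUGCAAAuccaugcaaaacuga
miR-302d-3p: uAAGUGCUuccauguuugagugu
miR-219a-5p: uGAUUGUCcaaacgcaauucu
miR-181b-5p: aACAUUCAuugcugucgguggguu
In the first group miR-17-5p and miR-20a-5p share a seed, as do miR-19a-3p and miR-19b-3p. The host gene Mir17hg was at 7.55 in untreated EBs and 6.96 with RA, Mir17 at 6.77 and 6.10, Mir18 at 8.07 and 7.18, Mir19a at 6.29 and 5.29, Mir20a at 5.56 and 4.90, and Mir19b-1 at 6.96 and 6.16. All 6 were lower, with a median of -0.74, and they are read from 1 transcript, so they are not separate observations. Of the 5 measured microRNAs of the miR-302 cluster 3 were lower, among them Mir302d (6.44 and 5.77), whose signal in ES cells was 4.39. Mir219a-2, known from oligodendrocytes and neural progenitors, was at 6.54 in ES cells, 6.44 without ligand, 8.20 with RA and 8.43 with bexarotene, and Mir181b-1 at 3.85, 4.48, 5.75 and 6.10. Many of these signals are below the median of the array, 6.69 with RA, and the probe sets do not tell the precursor from either mature arm.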

How the data were processed

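RNA of 4 cultures was profiled, 1 Affymetrix array each. The authors deposited 1 log2 value for each probe set and array, after normalization with RMA (named in the article) or GCRMA in Affymetrix Expression Console (named in the submitters' notes). The scanner files were not processed again, and signals ran from 1.95 to 13.1. The number of arrays limits the precision. Normalization would hide a shift shared by most genes.

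Of the probe sets, 21789 have a single symbol in the platform annotation, 1621 have several and 12146 have none. Only the first kind was used. A gene with several probe sets is shown by the one of highest mean signal and called where any passed 1.5-fold and none the other way. Members, the 51 gene lists (929 genes measured) and markers were chosen with earlier results of these data known. The genes named are the 20 furthest apart in each direction with the higher signal at or above the array's median, all retinoid and Hox members, up to 6 members of each other list, and 10 per direction between the ligands, without unnamed gene models and small RNAs. Dlx2, Fzd8, Gata4, Gli1, Klf2, Klf4, Lefty2, Msgn1, Nanog, Pou5f1, Sox1, Sox2, Sox17, Tbx6, Tet1, Trh, Ttr, the microRNAs and the groups added at the end were chosen after their values were seen. Direct repeats were searched on both strands in RefSeq windows of 300 bases. The calling procedure was tested on simulated data with a single probe set per gene, equal noise at every signal level and changes larger than the threshold. The rule for several probe sets and calls near 1.5-fold were not tested in this way. Python 3.11.15, numpy 2.4.6 and pandas 2.3.3 were used. No coordinates other than those of the RefSeq sequences are given, since no build is given for the array in the sources used here. Alternatives were a 2-fold threshold, quantile, loess (span 0.3) and median normalization, a floor at the 25th percentile, a filter on low signal, other rules for several probe sets, all probe sets, and DR5 alone.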

Additional observations from a re-analysis of the deposited data

How the results depend on the processing

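At a threshold of 2-fold 133 genes were higher and 161 lower with RA, and over all probe sets, counted as such, 831 were higher and 1160 lower. Genes were also counted under quantile, loess or median normalization, a floor, a filter on low signal or another rule for several probe sets. In these settings between 347 and 427 genes were higher and between 387 and 477 lower. No gene called in the main setting was called in the opposite direction in any of them. That would take a move across the whole span between the higher and lower thresholds, and sign changes inside the threshold were not counted. DR5 alone was in promoter windows of 11 genes and any of the repeats in those of 63. Of 213 named genes past 1.5-fold, 5 were inside it after quantile normalization (Decr1, Fhl2, Fos, Nckap1l and Tacr1), 4 after loess (Decr1, Krt8, Nckap1l and Sall1) and 3 with the floor (Chl1, Gria2 and Tecrl). Newly past it were Cltb, Gcnt4 and Zfp703 after quantile normalization and Cltb, Dqx1 and Zfp703 after loess. List medians moved by at most 0.122 and changed sign only where they were within 0.0262 of 0. No paired analysis was possible because each condition has 1 array, and for the same reason no array could be left out in turn. Genes whose higher signal was below the median of the RA array passed 1.5-fold less often (1.76% against 6.14%). That split uses the same 2 signals as the difference, so how far dim genes limit what can be seen was not tested.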

Other observations

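The gene groups below were chosen after their values were seen, so their counts are descriptions of these arrays. Of 18 smooth muscle genes 9 were past 1.5-fold lower with RA than in untreated EBs and none was higher, with a median log2 difference of -0.62. Acta2, smooth muscle actin, had a log2 signal of 7.14 in ES cells, 10.28 without ligand, 8.82 with RA and 9.27 with bexarotene, and Myocd, the coactivator that drives smooth muscle genes, stood at 5.65, 6.85, 5.87 and 6.03. Myh11, the smooth muscle myosin that marks mature cells, was at 6.23 in untreated EBs and 6.38 with RA, and Tagln at 7.55 and 7.05. Both of these were inside the threshold.

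Clustered protocadherins give neurons distinct surface identities. Of the 22 genes of the protocadherin beta cluster 7 were past 1.5-fold higher with RA, none was lower and 21 differences were above 0, with a median of 0.40. Pcdhb11 was at 4.88 in ES cells, 5.50 without ligand, 6.52 with RA and 5.85 with bexarotene, and Pcdhb18 at 4.13, 5.24, 6.12 and 5.68. With bexarotene none of the 22 was past 1.5-fold from untreated EBs in either direction, where 1.52% of all genes were higher and 2.19% lower. The median was 0.26, and both comparisons share the untreated array. Between the ligands 1 of the 22 was past 1.5-fold, lower with bexarotene than with RA. The median difference, bexarotene minus RA, was -0.21. These genes are much alike in sequence, so their probe sets may share signal, and most of the levels are below the array median.

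The 3 teashirt zinc finger genes were all higher with RA. Tshz2 was at 6.79 and 7.71, Tshz3 at 8.25 and 9.17, and Tshz1 differed by 1.06. Of 16 nicotinic acetylcholine receptor subunits 4 were higher and none lower: Chrna3, Chrna5 (5.50 and 7.01), Chrna4 (9.15 and 10.42) and Chrnb2 (7.23 and 8.14). The muscle subunits Chrna1, Chrnb1, Chrnd, Chrne and Chrng were all inside the threshold. Chrna3 and Chrna5 lie next to each other in the mouse genome together with Chrnb4, which was at 7.80 and 8.13. Of the 12146 probe sets without a gene symbol, which the report leaves out, 339 were past 1.5-fold higher and 629 lower with RA. Over the genes measured the shares were 2.11% higher and 2.29% lower. These shares count genes, called where any of their probe sets passed, so they are not in the same unit as counts of probe sets.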
